A study of Mus musculus with 21 samples.

Results

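A set of 10 genes of the endothelial cell surface and cell junctions were followed across sorted mesodermal cells of differentiating mouse embryonic stem cells: Pecam1, Cdh5, Tie1, Tek, Esam, Icam2, Cldn5, Cd34, Emcn and Clec14a. They were chosen by name, and all 10 were found by their Ensembl identifiers among the 55487 gene entries of the count files. RNA was sequenced from day 4 embryoid bodies, aggregates in which stem cells differentiate, after sorting on the receptors PDGFRalpha and FLK1. The SP gate took FLK1-positive cells that lacked PDGFRalpha, and the DP gate took cells with both receptors. There were 21 libraries in 7 groups of 3.

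All 4 groups of the reporter line share its 2 alleles, T-GFP and Etv2-tdTomato. They were SP Etv2-positive, DP Etv2-positive, SP Etv2-negative and DP Etv2-negative cells, split by tdTomato. Etv2 encodes a factor of the ETS family without which endothelium and blood do not form. The second set held SP cells of the line iEtv2, in which doxycycline switches on Etv2 and was given at 2 µg per ml from day 2.5, and both gates of the wildtype line A2lox.Cre (WT). The labels name no doxycycline for WT cells and no iEtv2 library without it, so the line, the drug and the induced Etv2 cannot be told apart in that comparison. The labels do not say whether replicates were separate cultures, so p-values measure the spread between these libraries, which may be technical. In bulk libraries, fewer cells of a type and less RNA per cell cannot be told apart.

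Endothelial cells line blood vessels and seal against one another through adherens and tight junctions. Cdh5 (VE-cadherin) holds the adherens junction, Cldn5 the tight junction, and Esam, Icam2 and Pecam1 (CD31) are adhesion molecules of the immunoglobulin family at the same contacts. Tek (TIE2) is the receptor for the angiopoietins and Tie1 its companion receptor, while Cd34 and Emcn are sialomucins and Clec14a is a C-type lectin of the endothelial surface. Some of these genes, Pecam1, Tek and Cd34 among them, are also used by early blood cells.

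The promoter windows of 3 members are shown because the members differ most there in the GGAA core that ETS factors bind. They come from RefSeq on GRCm38.p6 and run from 250 bases before to 50 bases after the annotated start, 5′ to 3′ on the strand of the gene. Capitals mark GGAA and its reverse complement TTCC. The Tie1 window is chr4:118489800-118490099 on the minus strand, the Tek window chr4:94739039-94739338 on the plus strand and the Cldn5 window chr16:18776597-18776896 on the plus strand.
Tie1: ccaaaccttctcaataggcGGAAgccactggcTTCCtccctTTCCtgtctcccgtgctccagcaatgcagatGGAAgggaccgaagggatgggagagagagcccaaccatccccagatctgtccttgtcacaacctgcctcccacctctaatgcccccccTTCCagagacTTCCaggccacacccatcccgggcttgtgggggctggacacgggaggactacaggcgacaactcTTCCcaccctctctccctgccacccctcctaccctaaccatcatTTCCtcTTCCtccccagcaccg
Tek: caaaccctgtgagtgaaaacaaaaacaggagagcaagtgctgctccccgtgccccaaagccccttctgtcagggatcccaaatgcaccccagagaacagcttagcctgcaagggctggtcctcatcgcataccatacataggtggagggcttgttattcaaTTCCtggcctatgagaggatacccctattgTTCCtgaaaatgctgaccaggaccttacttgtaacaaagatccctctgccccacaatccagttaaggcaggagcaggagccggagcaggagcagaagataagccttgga
Cldn5: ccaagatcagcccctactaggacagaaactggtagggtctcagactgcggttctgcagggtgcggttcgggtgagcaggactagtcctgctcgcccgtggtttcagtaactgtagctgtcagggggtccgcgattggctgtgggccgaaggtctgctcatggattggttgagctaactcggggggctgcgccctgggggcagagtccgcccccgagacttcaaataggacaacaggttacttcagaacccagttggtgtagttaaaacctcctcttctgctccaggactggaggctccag

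Windows were given for 6 of the 10 members. The core occurred 9 times in the Tie1 window, 7 times in that of Clec14a, 6 times in that of Emcn, 5 times in that of Cd34 and 2 times in that of Tek, and it was not in the Cldn5 window. Across all 32851 promoter windows searched the same way, on both strands, 96% held at least 1 and the median number was 3. The longer form CAGGAA, which contains the core, was in 5 of the 6 member windows and in 30.6% of all windows. ACAGGAA, which contains both and resembles a joint FOX and ETS site, was in the windows of Tie1 and Emcn and in 8.67% of all windows. CCGGAA was in 0 of the 6 and in 14.9% of all. GATAA, the GATA form, was in 3 of 6 against 25.4% of all, ACAAT, the SOX form, in 4 of 6 against 31% of all, and CATCTG, an E-box, in the Tie1 window and 17.2% of all. These matches are descriptions of letters and not of bound sites.

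Gene counts per library came to 25045553 to 32777143 for the reporter line and 22406153 to 28184904 for the others. Pseudogenes drew 12.2 to 14.4% of counts from reporter-line libraries, but only 0.549 to 0.636% from libraries of the second set. What caused this gap was not tested, and levels are therefore compared within a set. Ribosomal RNA took 0.212 to 1.396% of reporter-line counts, with replicate 2 of the SP Etv2-negative cells and replicate 3 of the SP Etv2-positive cells highest. Etv2, as a check of the sort, averaged 89 CPM in SP Etv2-positive and 58.4 CPM in DP Etv2-positive cells, against 26.6 CPM in SP Etv2-negative and 20.2 CPM in DP Etv2-negative cells. It averaged 239 CPM in iEtv2 SP cells and 93.6 CPM in WT SP cells, counted at the gene without separating introduced from resident copies. Pdgfra, the gene of PDGFRalpha, averaged 37.5 CPM in SP Etv2-positive and 150 CPM in DP Etv2-positive cells, against 51.7 CPM in SP Etv2-negative and 253 CPM in DP Etv2-negative cells. In WT it averaged 40 CPM in SP and 318 CPM in DP cells, so its level followed the gate in both lines. Kdr, the gene of FLK1, lay between 437 and 892 CPM in all 7 group means, and T averaged 37.8 CPM in DP Etv2-positive and 104 CPM in DP Etv2-negative cells. CPM here are counts relative to library sizes scaled by TMM.

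In the reporter line 7 of the 10 members had enough counts to be tested. Cldn5, Emcn and Clec14a did not pass the filter on low counts there, and all 10 were tested in the second set. Icam2 passed that filter in the reporter line only through SP Etv2-positive cells, and Emcn and Clec14a in the second set only through iEtv2 SP cells, where each is highest, so their differences from those groups were favoured by the filter. A member is called where the edgeR quasi-likelihood test gave a Benjamini-Hochberg adjusted p below 0.05 over all genes tested. That test has no term for replicate number, and values from a fit with one, the replicate block, are named as such.

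Among the tested members, Cdh5 (chr8:104101625-104144511) had the widest ratio between its highest and lowest group means, while Tek spanned more in CPM. It measured 11.3, 12.3 and 23.1 CPM in SP Etv2-positive and 0.699, 1.16 and 2.2 CPM in DP Etv2-positive cells. In SP Etv2-negative cells it measured 1.43, 3.12 and 3.99 CPM, and in DP Etv2-negative cells 0.118, 0.0904 and 0.135 CPM, from 10 counts in all. Each SP Etv2-positive library lay above every library of the other groups, each DP Etv2-negative library lay below them, and the groups between them overlapped. Esam (chr9:37528078-37538319), which sits at tight junctions, measured 1.84, 2.86 and 4.15 CPM in SP Etv2-positive cells and 0.221, 0.112 and 0.465 CPM in DP Etv2-positive cells. It measured 0.466, 1.14 and 1.19 CPM in SP Etv2-negative cells and 0.196, 0.181 and 0.101 CPM in DP Etv2-negative cells. Its SP libraries lay above its DP libraries with and without the reporter, and the DP groups overlapped.

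Pecam1 (chr11:106654217-106750628, minus strand) was apart by the reporter in both gates. It measured 5.42, 6.9 and 12.8 CPM in SP Etv2-positive cells and 4.93, 5.58 and 10.9 CPM in DP Etv2-positive cells. It measured 2.83, 2.57 and 4.57 CPM in SP Etv2-negative cells and 1.65, 1.87 and 4.64 CPM in DP Etv2-negative cells. All 6 Etv2-positive libraries lay above all 6 Etv2-negative ones, while the gates overlapped on either side of the reporter. Icam2 (chr11:106377656-106388075, minus strand), a ligand of leukocyte integrins, measured 0.405, 0.593 and 1.27 CPM in SP Etv2-positive cells and between 0 and 0.155 CPM in the other 9 libraries, which rest on few counts.

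The angiopoietin receptor Tek (chr4:94739289-94874976) measured 13.3, 14.7 and 31.6 CPM in SP Etv2-positive cells and 2.28, 3.15 and 7.81 CPM in DP Etv2-positive cells. It measured 1.54, 2.89 and 3.96 CPM in SP Etv2-negative cells and 0.392, 0.422 and 0.64 CPM in DP Etv2-negative cells. As for Cdh5, the SP Etv2-positive cells were apart on the high side, the DP Etv2-negative cells apart on the low side, and those between them overlapped. Tie1 (chr4:118471191-118490061, minus strand) had the same arrangement, with 1.51, 1.45 and 5.41 CPM in SP Etv2-positive cells and 0.184, 0.225 and 0.434 CPM in DP Etv2-positive cells. Its SP Etv2-negative cells had 0.215, 0.52 and 0.887 CPM and its DP Etv2-negative cells 0.0392, 0.0301 and 0.168 CPM.

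Cd34 (chr1:194938819-194961279), a sialomucin of endothelial and blood progenitors, kept the narrowest span of the 7 tested members. It measured 0.7, 1.08 and 2.71 CPM in SP Etv2-positive cells and 0.588, 0.637 and 1.21 CPM in DP Etv2-positive cells. It measured 0.43, 0.618 and 1.13 CPM in SP Etv2-negative cells and 0.47, 0.392 and 0.673 CPM in DP Etv2-negative cells. Neighbouring groups overlapped throughout. Cd34 shares 148 exonic bases with the antisense gene Gm16897 and the strand setting of the counting is not given in the sources used here, so reads of the pair cannot be told apart. Cldn5 (chr16:18776847-18778262) had 2, 6 and 11 counts in SP Etv2-positive cells and 1, 0 and 4 counts in DP Etv2-positive cells. It had 3, 5 and 5 counts in SP Etv2-negative cells and 0 in each DP Etv2-negative library. Against a floor of 3 counts over the DP Etv2-negative group, Cldn5 was 6.72-fold higher in SP Etv2-positive and 4.35-fold higher in SP Etv2-negative cells. These ratios allow for counting error in the DP Etv2-negative group only, and not in the 19 and 13 counts set against it. Emcn (chr3:137341067-137432185) totalled 5 counts in the SP Etv2-positive cells, 1 in DP Etv2-positive, 1 in SP Etv2-negative and 0 in DP Etv2-negative cells. Clec14a (chr12:58264720-58269290, minus strand) totalled 11 counts in SP Etv2-positive, 18 in DP Etv2-positive, 8 in SP Etv2-negative and 2 in DP Etv2-negative cells, and was the member whose total was highest in DP Etv2-positive cells.

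**Figure D1:**
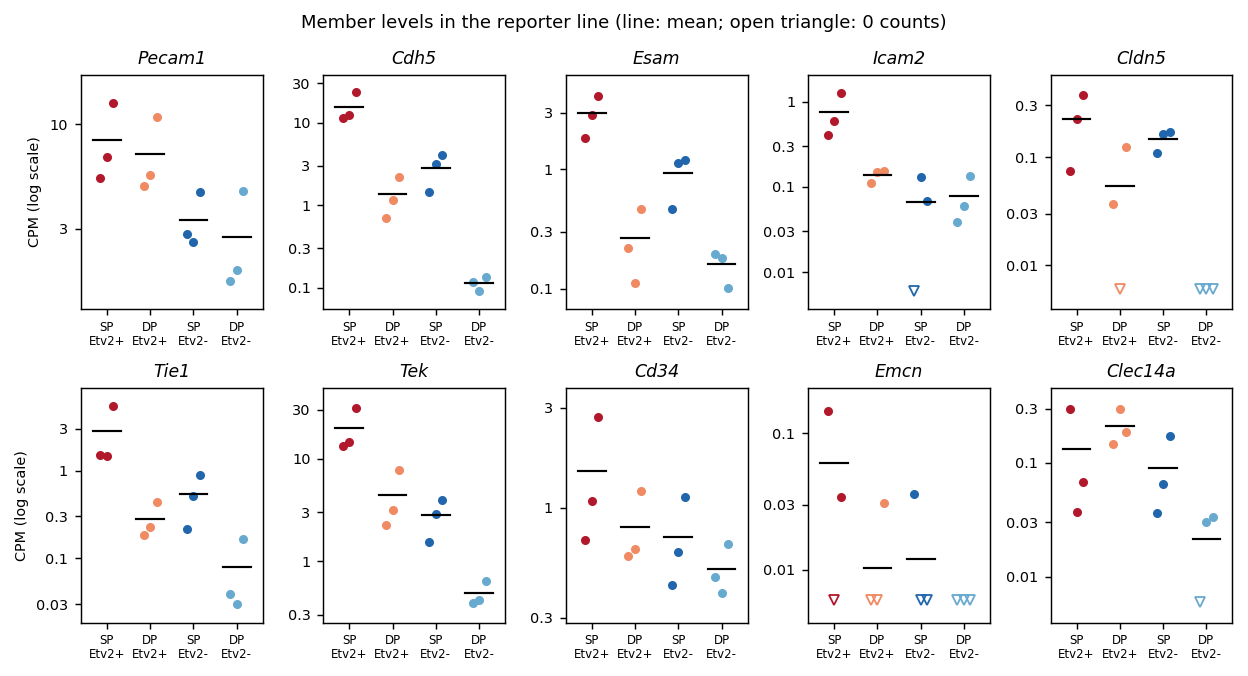
Levels of the 10 members in the 12 reporter-line libraries, in CPM on a log axis that differs between panels, with groups on the horizontal axis, points for libraries, lines for group means and open triangles for 0 counts. Cdh5, Tek and Tie1 are highest in SP Etv2-positive and lowest in DP Etv2-negative cells without overlap, and Pecam1 separates by the reporter, with the gates overlapping.

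Replicate 3 stood apart within the reporter line. The summed member level was 35, 40.1 and 81.6 CPM in replicates 1, 2 and 3 of the SP Etv2-positive cells, and 9.19, 11.3 and 23.6 CPM in those of the DP Etv2-positive cells. It was 7.1, 11.2 and 16.1 CPM in the SP Etv2-negative and 2.9, 3.07 and 6.53 CPM in the DP Etv2-negative cells. Replicate 3 was highest for 8, 9, 8 and 7 members in these groups, out of 10, 10, 10 and 8 with any counts. Etv2 did not share this order, with 79.6, 109 and 78.7 CPM in replicates 1, 2 and 3 of the SP Etv2-positive cells. Replicate 3 of that group is also 1 of the pair with much ribosomal RNA, whose part was not tested. In the second set replicate 3 was highest for 3 members in iEtv2 SP, 0 in WT SP and 2 in WT DP cells.

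**Figure D2:**
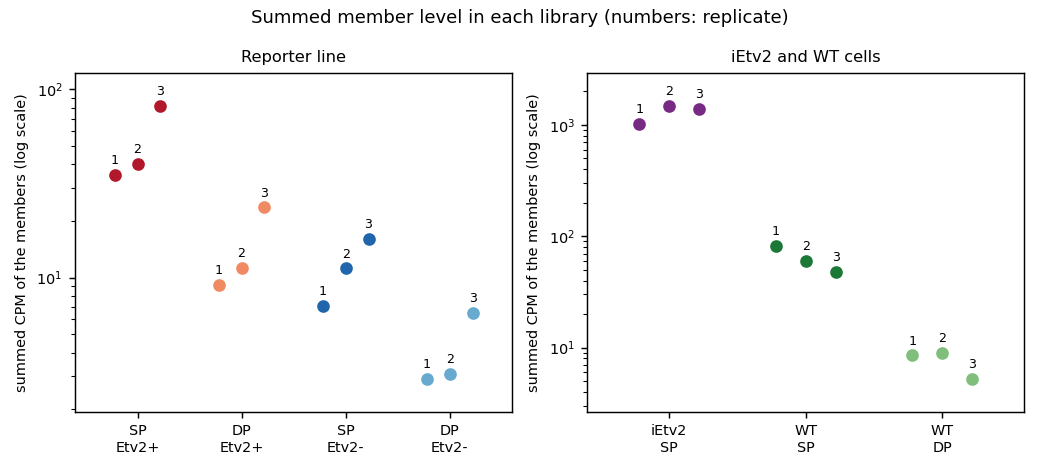
Summed CPM of the 10 members in each library, on log axes, with groups on the horizontal axis and replicate numbers above the points. Replicate 3 is the highest library of every reporter-line group, at 81.6 CPM in SP Etv2-positive cells, but of no group in the second set.

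Within SP cells, 6 of the 7 tested members were higher in Etv2-positive than in Etv2-negative cells, where 13.1% of the 17690 genes tested were called higher and 12.4% lower. Leaving aside Icam2, 5 of 6 were higher. Icam2 had a log2 fold change of 3.41 ± 0.63 (SE) on 64 counts in SP Etv2-positive and 6 in SP Etv2-negative cells. Tek was higher by 2.82 ± 0.45, Cdh5 by 2.45 ± 0.37, Tie1 by 2.36 ± 0.56, Esam by 1.65 ± 0.37 and Pecam1 by 1.34 ± 0.43 on the same scale, with adjusted p of 0.000617 for Cdh5 and 0.0365 for Pecam1 (edgeR quasi-likelihood test, Benjamini-Hochberg). Cd34 did not pass, at 1.05 ± 0.48 and an adjusted p of 0.129 by the same edgeR test, and passed with replicate number as a block (adjusted p = 0.0086). Without replicate 3 of the SP Etv2-positive cells the edgeR log2 fold changes were 2.80 for Icam2, 2.32 for Tek, 2.05 for Cdh5, 1.44 for Tie1 and 1.32 for Esam, all still called, and 0.89 for Pecam1, which was not (adjusted p = 0.167). Pecam1 was also lost without replicate 2 of the SP Etv2-positive cells (edgeR adjusted p = 0.054) or without replicate 1 or 2 of the SP Etv2-negative cells (0.113 and 0.117). Without both libraries of high ribosomal RNA share, Tie1 was lost at 1.40 (edgeR adjusted p = 0.0927) and Pecam1 at 0.73 (0.333).

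Within DP cells, 3 of the 7 tested members were higher in Etv2-positive than in Etv2-negative cells, where 16.0% of genes were called higher and 14.7% lower. Cdh5 was higher by 3.56 ± 0.75 on the log2 scale, Tek by 3.19 ± 0.62 and Pecam1 by 1.40 ± 0.44, with edgeR adjusted p of 0.00316, 0.00172 and 0.0285. Tie1 (1.81 ± 1.10), Esam (0.78 ± 0.70), Icam2 (0.78 ± 0.83) and Cd34 (0.69 ± 0.55) did not pass, and Tie1 passed with the replicate block (edgeR adjusted p = 0.0198). Without replicate 3 of the DP Etv2-positive cells, Cdh5 and Tek were still called at 2.98 and 2.46, and Pecam1 was not at 0.94 (edgeR adjusted p = 0.145). Pecam1 was also lost without replicate 1 or 2 of the DP Etv2-negative cells (0.108 and 0.112). The reporter effect was not shown to differ between the gates for any member. By edgeR 0 of 7 passed against 3.97% of all genes, 1 of 7 (Icam2, 2.62 ± 1.17, SP minus DP on the log2 scale) had an unadjusted p under 0.05, as did 19.6% of all genes, and DESeq2 called 0.

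Among Etv2-positive cells, 5 of the 7 tested members were higher in SP than in DP, where 6.95% of genes were called higher and 6.94% lower, or 4 of 6 leaving aside Icam2. Cdh5 was higher by 3.49 ± 0.41 on the log2 scale, Esam by 3.40 ± 0.45, Tie1 by 3.27 ± 0.63, Icam2 by 2.42 ± 0.55 and Tek by 2.15 ± 0.43, with edgeR adjusted p of 0.00039 for Cdh5 and 0.0129 for Icam2. Icam2 was lost without replicate 3 of the SP Etv2-positive cells (1.81, edgeR adjusted p = 0.0602). Pecam1 had a difference of 0.22 ± 0.40 and Cd34 of 0.87 ± 0.47, and neither passed. Pecam1 stood at -0.23 ± 0.41 without replicate 3 of the SP Etv2-positive cells.

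Among Etv2-negative cells, 3 of the 7 tested members were higher in SP than in DP, where 6.10% of genes were called higher and 4.84% lower. Cdh5 was higher by 4.61 ± 0.68 on the log2 scale, Esam by 2.53 ± 0.56 and Tek by 2.52 ± 0.64, with edgeR adjusted p of 0.0012, 0.0129 and 0.0249. Tie1, at 2.71 ± 0.98, did not pass edgeR (adjusted p = 0.0981) and passed DESeq2 (0.00837). Pecam1 (0.28 ± 0.46), Cd34 (0.51 ± 0.56) and Icam2 (-0.21 ± 0.96) did not pass. Tek was lost by edgeR without replicate 1 (adjusted p = 0.101) or 2 (0.107) of the DP Etv2-negative cells, or replicate 2 (0.0579) or 3 (0.0947) of the SP Etv2-negative cells, and Esam without replicate 2 of the DP Etv2-negative cells (0.0549). Pecam1 stood at -0.02 without replicate 3 of the SP Etv2-negative cells, and Icam2 at 0.39 without replicate 3 of the DP Etv2-negative or 0.32 without replicate 1 of the SP Etv2-negative cells.

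**Figure D3:**
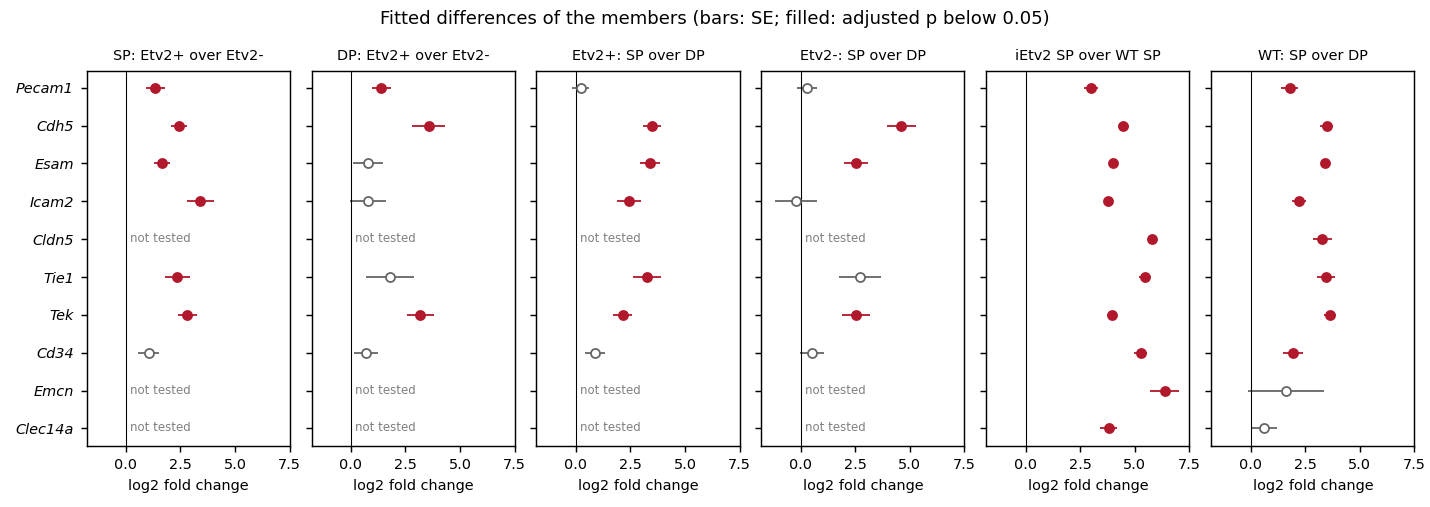
Fitted log2 fold changes of the members with SE bars in 6 comparisons, filled where the adjusted p was below 0.05. Pecam1 is near 0 between the gates of the reporter line, at 0.22 and 0.28, while all 10 members lie between 3.0 and 6.37 for iEtv2 SP over WT SP.

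The members were ordered by setting each group's mean against that of SP Etv2-positive cells, with the SD of the group scaled alike. All groups were taken on day 4, so this is an order of shares and no order in time was measured. Pecam1 in DP Etv2-positive cells stood at 85.2% ± 39.3 of its SP Etv2-positive level and Cd34 at 54.3% ± 23.1. Tek followed at 22.2% ± 15 and Icam2 at 18.3% ± 3.23. Tie1 at 10.1% ± 4.81, Esam at 9.02% ± 6.13 and Cdh5 at 8.69% ± 4.94 were lowest of the 7 tested and lay within each other's SD. Cldn5 stood at 23.9% on 5 counts. Several shares rest on replicate 3. Without replicate 3 of the SP Etv2-positive cells, Cd34 stood at 91.4%, Icam2 at 27.7% and Tie1 at 19%, and without replicate 3 of the DP Etv2-positive cells Tek stood at 13.7% and Esam at 5.65%.

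In SP Etv2-negative cells the order of the means was different, though neighbours in it overlapped within their SD. Set directly against DP Etv2-positive cells, as given below, only Esam was called in the main fit. Cd34 stood at 48.5% ± 24.1 and Pecam1 at 39.6% ± 13 of the SP Etv2-positive level, and Esam followed at 31.6% ± 13.7. Tie1 was at 19.4% ± 12.1, Cdh5 at 18.3% ± 8.34, Tek at 14.1% ± 6.09 and Icam2 at 8.75% ± 8.61. Without replicate 3 of the SP Etv2-positive cells Cd34 stood at 81.6%, Tie1 at 36.6% and Icam2 at 13.2%, and Icam2 was at 4.52% without replicate 2 of the SP Etv2-negative cells. In DP Etv2-negative cells Cd34 kept 34.2% and Pecam1 32.4%, while Cdh5 was at 0.733%. These 2 shares moved to 57.6% for Cd34 without replicate 3 of the SP Etv2-positive cells and to 20.9% for Pecam1 without replicate 3 of the DP Etv2-negative cells. Of the 7 tested members, Pecam1 and Cd34 thus had the flattest levels.

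DP Etv2-positive and SP Etv2-negative cells differ in both the gate and the reporter and were set against each other directly. Of the 7 tested members 1 passed, against 15.6% of all genes called in either direction. Esam was lower in DP Etv2-positive cells by a log2 fold change of -1.75 ± 0.51 (edgeR adjusted p = 0.0361), and the DP Etv2-positive range ended at 0.465 CPM where the SP Etv2-negative range began at 0.466 CPM. That call was lost by edgeR without any 1 of replicates 1 or 2 of the DP Etv2-positive or 2 or 3 of the SP Etv2-negative cells (adjusted p = 0.11, 0.0917, 0.0989 and 0.107), and when the fit held no other groups (0.0588). Pecam1 (1.11 ± 0.43), Tek (0.67 ± 0.47), Icam2 (0.99 ± 0.86) and Cd34 (0.18 ± 0.52) leaned to DP Etv2-positive cells and Cdh5 (-1.05 ± 0.44) and Tie1 (-0.91 ± 0.76) to SP Etv2-negative cells without passing in the main fit. With the replicate block, Pecam1 (edgeR adjusted p = 0.000289), Cdh5 (0.00334) and Tek (0.0304) passed as well, beside 21.2% of all genes. Pecam1, Cdh5 and Tek also passed without the filter on low counts. Same-numbered libraries of these groups are not taken as paired. Etv2 itself was higher in DP Etv2-positive cells by 1.13 ± 0.14.

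**Figure D4:**
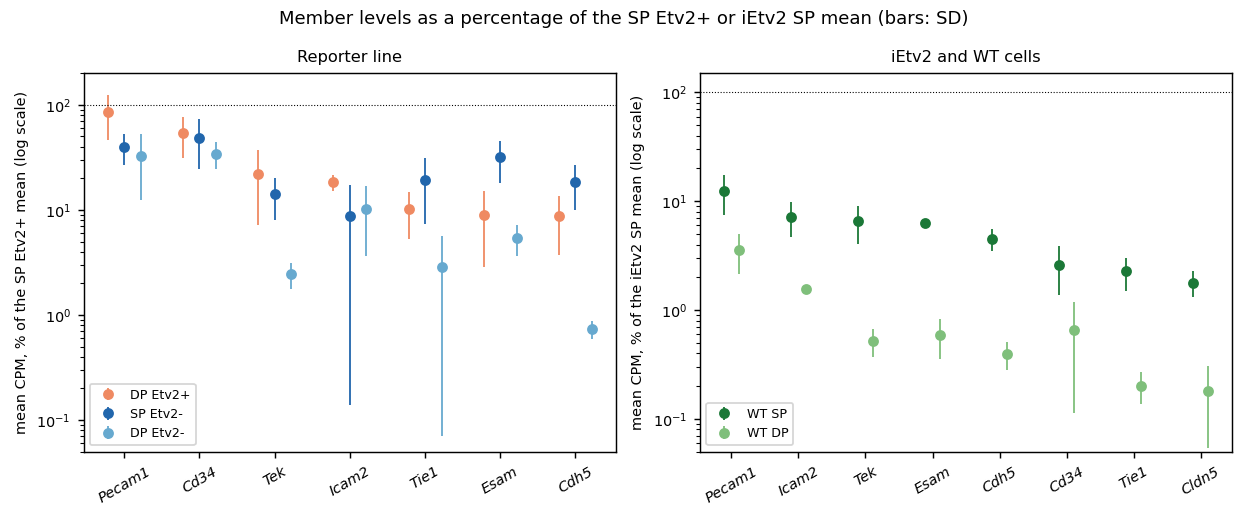
Mean member level in each group as a percentage of the SP Etv2-positive mean (left) or the iEtv2 SP mean (right), on log axes with SD bars, for the 7 tested members of the reporter line and the 8 members with over 100 counts in WT SP cells. Pecam1 is closest to the full level in DP Etv2-positive cells at 85.2% and Cdh5 farthest at 8.69%, and every member shown is at or below 12.4% in WT SP cells.

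In WT cells 8 of the 10 members were higher in SP than in DP, where 9.08% of the 16288 genes tested were called higher and 6.76% lower. The 3 libraries of each gate did not overlap for these 8. Tek measured 25.4, 15.6 and 12.5 CPM in WT SP cells, against 1.37, 1.85 and 1.04 CPM in WT DP cells, a log2 fold change of 3.64 ± 0.29 (edgeR adjusted p = 3.06e-05). Cdh5 measured 24.5, 21 and 15.3 CPM in WT SP cells, against 1.91, 2.23 and 1.22 CPM in WT DP cells (3.49 ± 0.30). All of the WT SP libraries were several-fold above the WT DP libraries for both genes. Tie1 (3.45 ± 0.43), Esam (3.42 ± 0.18), Cldn5 (3.29 ± 0.43), Icam2 (2.20 ± 0.32), Cd34 (1.95 ± 0.47) and Pecam1 (1.79 ± 0.38) were higher as well. Pecam1 measured 9.34, 7.61 and 3.86 CPM in WT SP cells, against 2.52, 2.36 and 1.08 CPM in WT DP cells. Emcn (1.63 ± 1.74, on 4 counts in WT SP and 1 in WT DP cells) and Clec14a (0.61 ± 0.60) did not pass. Cd34 was lost by edgeR without replicate 1 of the WT SP cells (adjusted p = 0.0667) or replicate 3 of the WT DP cells (0.0646).

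All 10 members were higher in iEtv2 SP than in WT SP cells, where 26.4% of genes were called higher and 24.4% lower. Leaving aside Emcn and Clec14a, 8 of 8 were higher, with a median log2 fold change of 4.23, beside 0.002 for all genes tested. Cdh5 measured 306, 546 and 501 CPM in iEtv2 SP cells, against 24.5, 21 and 15.3 CPM in WT SP cells, a log2 fold change of 4.47 ± 0.25 (edgeR adjusted p = 2.5e-07). Cldn5, the tight junction claudin, measured 63.8, 85.8 and 84.9 CPM in iEtv2 SP cells, against 1.73, 0.989 and 1.49 CPM in WT SP cells (5.80 ± 0.21). Tie1 measured 146, 254 and 227 CPM in iEtv2 SP cells, against 6.59, 3.73 and 3.86 CPM in WT SP cells (5.46 ± 0.26). For each member the lowest iEtv2 SP library lay above the highest WT SP library.

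Tek was higher by 3.94 ± 0.22, at 248, 284 and 286 CPM in iEtv2 SP cells, against 25.4, 15.6 and 12.5 CPM in WT SP cells. Cd34 was higher by 5.26 ± 0.31, at 80.2, 67.4 and 74.8 CPM in iEtv2 SP cells, against 2.98, 1.33 and 1.49 CPM in WT SP cells. Esam (3.98 ± 0.13), Icam2 (3.79 ± 0.22) and Clec14a (3.80 ± 0.38) were higher too. Pecam1 had the smallest log2 fold change, 3.0 ± 0.32, at 39.2, 69.5 and 58.9 CPM in iEtv2 SP cells, against 9.34, 7.61 and 3.86 CPM in WT SP cells. Emcn measured 2.19, 6.63 and 5.58 CPM in iEtv2 SP cells, against 3, 0 and 1 counts in WT SP cells, and its fitted 6.37 ± 0.67 rests on these few. Clec14a reached 1.76, 2.52 and 3.11 CPM in iEtv2 SP cells against 0.275, 0.152 and 0.0849 CPM in WT SP cells. No call of a member was lost when any 1 library was left out.

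**Figure D5:**
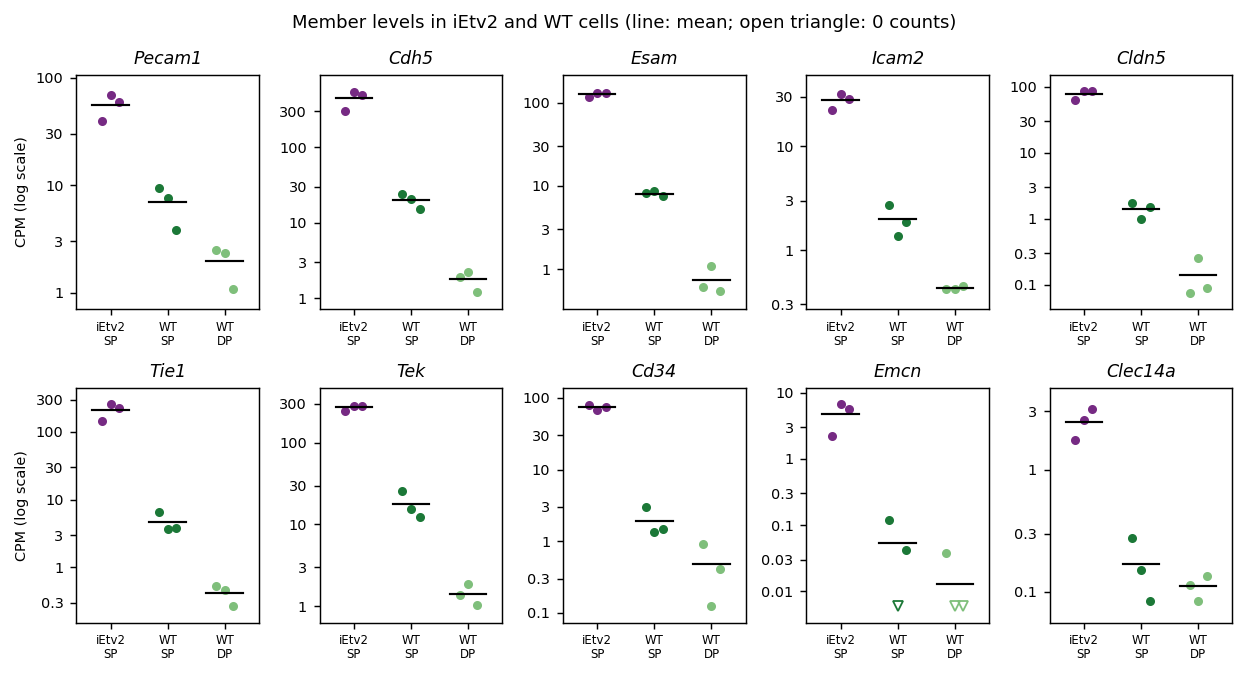
Levels of the 10 members in the 9 libraries of iEtv2 and WT cells, in CPM on a log axis that differs between panels, with points for libraries, lines for means and open triangles for 0 counts. Cdh5 reaches 306 to 546 CPM in iEtv2 SP cells and lies between 15.3 and 24.5 CPM in WT SP cells.

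As a share of the iEtv2 SP level, WT SP cells held 12.4% ± 5.01 of Pecam1, 7.23% ± 2.53 of Icam2, 6.53% ± 2.46 of Tek, 6.33% ± 0.458 of Esam and 4.49% ± 1.03 of Cdh5. Cd34 (2.61% ± 1.23), Tie1 (2.26% ± 0.774) and Cldn5 (1.79% ± 0.481) were the members furthest from that level among those with over 100 counts in WT SP cells. Between the WT gates Cd34 had the second smallest of the called differences, and WT DP cells held 0.651% ± 0.539 of its iEtv2 SP level. That share ranged from 0.359 to 0.891% with 1 library left out. Cdh5 at 0.396% ± 0.115 and Tek at 0.521% ± 0.15 lay within its SD.

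Levels of different members were compared per kilobase of merged exons, and their order depends on that choice of length. Merged exons are 7290 bases for Cd34, 6228 for Pecam1, 2867 for Esam and 1904 for Icam2. The longest transcripts of these are 3063, 3441, 1865 and 1282 bases, while for Cldn5 and Clec14a both lengths are the same. Per length of transcript, Cd34, Pecam1, Esam and Icam2 would stand higher against those 2. In iEtv2 SP cells Cdh5 was first at 107 CPM per kb and did not overlap with the next, Tek at 57.9. Tek, Cldn5 (55.2), Esam (44.5) and Tie1 (42.5) each overlapped with their neighbour in that order. Icam2 (14.5) was apart from both neighbours, Cd34 (10.2) and Pecam1 (8.97) overlapped, and Emcn (0.887) and Clec14a (0.539) came last. In SP Etv2-positive cells Tek (4.22 CPM per kb) and Cdh5 (3.71) overlapped and were apart from Pecam1 (1.35), below which every neighbour overlapped. In DP Etv2-positive cells Pecam1 (1.15) and Tek (0.936) led and overlapped, with Cdh5 at 0.322. In SP Etv2-negative cells Cdh5 (0.678), Tek (0.594) and Pecam1 (0.534) overlapped. In DP Etv2-negative cells Pecam1 was first at 0.437 CPM per kb and apart from Tek at 0.103. WT SP cells had Cdh5 (4.82), Tek (3.78) and Esam (2.82) at the top with overlapping neighbours, and WT DP cells Cdh5 (0.425), Pecam1 (0.319) and Tek (0.301).

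Likeness was measured as the root mean square difference of log2 CPM, each gene centred on its own mean, over the 12 reporter-line libraries and 10007 genes. The gene nearest to Cdh5 was Tal1 (0.57), followed by Slc7a8 (0.61) and Sox7 (0.68). Tek was nearest to Cbfa2t3 (0.48), Icam2 to Fli1 (0.36), Tie1 to Wnk4 (0.40), Pecam1 to Adam12 (0.27) and Cd34 to Fam210b (0.30), and Esam to Atp2a3 and Gata2 at 0.58 each. Small distances come more easily to genes that vary little, as Pecam1 and Cd34 did. Among the members, Pecam1 and Cd34 were closest (0.46), followed by Tie1 with Tek and with Esam (0.67 each). These values share libraries, depth and the 4 groups and are descriptions.

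Partners of the members were read from a list of 36 genes of junctions, Tie signalling and the endothelial surface, of which 32 were tested in the reporter line. In SP cells 14 were higher and 1 lower with the reporter, with a median log2 fold change of 0.38 beside -0.013 for all genes. Vwf, the clotting factor stored by endothelium, was higher by 3.09 ± 0.44, Plvap, of endothelial fenestrae, by 1.96 ± 0.15, Ramp2, of the adrenomedullin receptor, by 1.86 ± 0.26, and Ptprb, the phosphatase that acts on Tek and Cdh5, by 1.56 ± 0.30. In DP cells 16 were higher and 4 lower (median 0.57 beside 0.004). Angpt1, the ligand of Tek, was higher by 2.11 ± 0.40 in DP Etv2-positive than in DP Etv2-negative cells. It measured 2.91, 3.33 and 7.81 CPM in DP Etv2-positive cells, against 0.549, 1.02 and 1.65 CPM in DP Etv2-negative cells, which did not overlap. It was lower in SP than in DP Etv2-positive cells by -1.62 ± 0.39, opposite in sign to its receptor Tek at 2.15.

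Cd93, a C-type lectin of the same family as Clec14a, was lower with the reporter in DP cells, where no tested member was. Its level was 0.515, 0.674 and 0.341 CPM in DP Etv2-positive cells, against 5.41, 4.85 and 3.64 CPM in DP Etv2-negative cells, a log2 fold change of -3.19 ± 0.31 (edgeR adjusted p = 1.24e-05). It was lower in SP than in DP among Etv2-negative cells (-2.47 ± 0.28) and in WT (-2.33 ± 0.49). In iEtv2 SP cells it measured 10.2, 41.1 and 32.1 CPM, against 1.1, 1.6 and 0.934 CPM in WT SP cells, higher by 4.51 ± 0.48. Its highest levels were thus in iEtv2 SP cells, with WT DP cells at 6.06, 6.82 and 5.55 CPM. Of the partners 9 were higher and 3 lower in SP than in DP Etv2-positive cells (median 0.22 beside -0.011), and 10 were higher and 4 lower in SP than in DP Etv2-negative cells (0.43 beside 0.001). In WT 21 were higher and 1 lower in SP than in DP, of 33 tested, with a median of 0.69 beside -0.005, led by Mmrn2 (multimerin-2, a ligand of CLEC14A and CD93 in human) at 2.55 ± 0.39. In iEtv2 SP over WT SP cells 26 were higher and 4 lower (1.74 beside 0.002). There Mmrn1, of the same family, had 50, 360 and 279 counts in iEtv2 SP cells and 1 count in all in WT SP cells, and Vwf was higher by 3.67 ± 0.39 and Adgrl4 by 4.18 ± 0.47.

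Of 24 endothelial transcription factors, which include Etv2, 14 were higher and 3 lower with the reporter in SP, and 8 were higher and 4 lower in DP, with medians of 0.82 beside -0.013 and 0.29 beside 0.004. In SP Etv2-positive over SP Etv2-negative cells, Sox7, an early endothelial SOX factor, was higher by 3.33 ± 0.31, Tal1, a bHLH factor of blood and endothelium, by 3.16 ± 0.32, its relative Lyl1 by 2.92 ± 0.40 and the ETS factor Erg by 2.68 ± 0.41. Between Etv2-positive SP and DP cells 15 were higher and 1 lower in SP (median 1.04 beside -0.011), and between the Etv2-negative gates 7 and 3 (0.44 beside 0.001). In WT 16 were higher and 2 lower in SP than in DP (0.80 beside -0.005). In iEtv2 SP over WT SP cells 21 were higher and 1 lower (1.83 beside 0.002), with Nr2f2 (COUP-TFII, a venous factor) at 4.73 ± 0.41, Sox18 at 4.65 ± 0.22, Fli1 at 2.98 ± 0.14 and Elk3 at 2.64 ± 0.10.

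Of the 12 blood markers on the list 8 were tested in the reporter line. With the reporter 7 were higher and 0 lower in SP, with Hbb-bh1 at 3.63 ± 0.78 and Itga2b at 2.71 ± 0.42, while in DP 1 was higher, Runx1 at 0.91 ± 0.15, and 7 were not called. Between SP and DP, 7 were higher among Etv2-positive and 4 among Etv2-negative cells, and 7 of 7 tested in WT. Their summed level, to which Runx1 and Kit gave most, was 86.9 to 142 CPM in SP Etv2-positive, 43.9 to 56.4 in DP Etv2-positive, 53.7 to 58.2 in SP Etv2-negative and 24.2 to 34.6 CPM in DP Etv2-negative cells. Ptprc, the pan-leukocyte marker, had 1, 0, 2 and 0 counts in all in these groups, and Hba-x and Hbb-y had 0 counts in DP Etv2-positive cells. In iEtv2 SP over WT SP cells 3 blood markers were higher and 4 lower of 7 tested. Among those lower were Runx1 at -1.91 ± 0.12 and Hbb-bh1 at -3.57 ± 0.81, and the stem cell factor receptor Kit was higher by 2.58 ± 0.26. Itga2b averaged 33.6 CPM in iEtv2 SP and 9.89 CPM in WT SP cells, and Spi1 4.09 and 1.81 CPM. The summed level of the blood markers there was 196 to 248 CPM in iEtv2 SP cells, against 86.3 to 125 CPM in WT SP cells. Kit made up most of that sum in iEtv2 SP cells, at a mean of 164 CPM, against 27.5 CPM in WT SP cells. The median log2 fold change of the 7 blood markers tested was -1.6. The part of blood cells in the member levels was not tested in either set.

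Markers of other cell types were present in every group. In iEtv2 SP over WT SP cells 6 of 6 pluripotent markers were higher, at a summed 322 to 381 CPM in iEtv2 SP cells, against 77.2 to 117 CPM in WT SP cells. Cardiac and smooth muscle markers were lower for 4 of 5 tested, at a summed 11.2 to 16.9 CPM in iEtv2 SP cells, against 42.1 to 51.4 CPM in WT SP cells. Epithelial and endoderm markers split there, with 3 of 7 higher (Epcam at 1.86 ± 0.20, Cdh1 at 1.72 ± 0.33 and Cldn7 at 1.44 ± 0.31) and the keratins Krt8 (-1.94 ± 0.19) and Krt18 (-1.59 ± 0.26) lower. Their sum, 551 to 684 CPM in iEtv2 SP cells and 811 to 940 CPM in WT SP cells, was mostly the keratins in WT SP cells. Fibroblast and mesenchyme markers split as well, with Thy1 (1.07 ± 0.22) and Col1a2 (0.70 ± 0.22) higher and Col1a1 (-5.08 ± 0.39) and Pdgfrb (-1.68 ± 0.14) lower. Col1a1 made up most of their sum in WT SP cells, 246 to 302 CPM, against 53.5 to 82.8 CPM for the sum in iEtv2 SP cells.

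With the reporter in SP, 3 of 6 cardiac and smooth muscle markers were higher, led by Nkx2-5 at 2.42 ± 0.16, and 5 of 6 pluripotent markers were lower, led by Nanog at -1.85 ± 0.27 and Pou5f1 at -1.23 ± 0.23. Of the fibroblast and mesenchyme markers Thy1 was higher (1.5 ± 0.29), and of the epithelial and endoderm markers Epcam was lower (-0.87 ± 0.12). With the reporter in DP, 5 of 6 cardiac and smooth muscle markers and 4 of 6 fibroblast and mesenchyme markers were higher and 3 of 6 pluripotent markers lower, and Krt8 (1.58 ± 0.18) and Krt18 (2.07 ± 0.25) were higher and Epcam lower (-0.86 ± 0.12). In SP over DP Etv2-positive cells 3 of 6 fibroblast and mesenchyme markers were lower, Postn at -2.72 ± 0.59, Col3a1 at -1.95 ± 0.61 and Pdgfrb at -0.75 ± 0.14. In SP over DP Etv2-negative cells 5 of 7 epithelial and endoderm markers were higher, led by Krt18 at 1.43 ± 0.25. The part of these cells in the member levels was not tested.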

How the data were processed

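Total RNA of sorted cells was sequenced in 21 libraries. The authors deposited raw gene counts, made with featureCounts on mm10 per the submitters' processing notes. The 9 files of the second set hold summary entries of the kind STAR writes, so that tool is in doubt for them, and these entries were left out. Aligner, annotation and strand setting are not given in the sources used here. Of 55487 identifiers 55227 were named from GENCODE M21, which shares the GRCm38 build.

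The 12 reporter-line and 9 other libraries were fitted apart with edgeR 4.0.16 in R 4.3.3 (TMM scaling, filterByExpr, quasi-likelihood F-test, 1 term per group, two-sided, Benjamini-Hochberg over all genes tested), after the code was tested on simulated data. Called means an adjusted p below 0.05. SE is the log2 fold change over the root of F. A count of 0 allows up to 3 counts, or 0.0904 to 0.135 CPM per library, covering counting error only. Libraries of the same number deviated together for the reporter in DP (correlations 0.175 to 0.342) and SP (0.143 to 0.268), so these are taken as paired. The other comparisons missed the cutoff set for pairing and are not taken as paired. Their lowest same-number correlations were 0.096 between the gates without and 0.077 with the reporter, and 0.092 in WT. These still exceeded every correlation between different numbers there (highest 0.05, 0.066 and 0.088), so shared deviations are not excluded. The main fit leaves pairing by replicate number out. The replicate block takes it in, and for the reporter it added the calls of Cd34 in SP and Tie1 in DP and lost none of a member. Alternatives were DESeq2 1.42.0, RLE and upper-quartile scaling, other filters, a replicate block, only the compared groups and left-out libraries.

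The text names all members, the sort genes and, from each other list, genes among the 4 called with the largest change per comparison. Values of Angpt1, Cd93, Etv2, Ptprc, Hba-x, Hbb-y, Cldn7, Mmrn1, Itga2b and Spi1 beyond that rule were added after they were seen. Members and lists were chosen with earlier results of these data known.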

Additional observations from a re-analysis of the deposited data

Results flagged for a closer look

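No member's reporter effect was shown to differ between the gates, but 17 genes of the other lists had effects that differed by edgeR's test of the difference itself (SP minus DP, log2). Of all 17690 genes tested 3.97% passed. Of the 32 partners tested 5 passed. The 4 with the largest difference were Cd93 (2.33 ± 0.50, adjusted p = 0.0292), Ramp2 (1.68 ± 0.38, 0.0336), Svep1, a ligand of Tie1 (-1.89 ± 0.43, 0.0351), and Podxl, a sialomucin related to Cd34 (-1.16 ± 0.26, 0.0336). Podxl averaged 987 CPM in SP Etv2-positive and 936 CPM in DP Etv2-positive cells, against 789 CPM in SP Etv2-negative and 335 CPM in DP Etv2-negative cells. Of the 24 transcription factors 5 passed, and the 4 with the largest difference were Foxc2 (3.09 ± 0.31, 0.00362), Hhex (1.73 ± 0.37, 0.0294), Gata2 (1.12 ± 0.29, 0.0481) and Foxo1 (0.74 ± 0.16, 0.0336). Foxc2 averaged 2.61 CPM in SP Etv2-positive and 1.79 CPM in DP Etv2-positive cells, against 1.92 CPM in SP Etv2-negative and 11.2 CPM in DP Etv2-negative cells. Of the markers of other cells, the blood marker Itga2b passed at 2.66 ± 0.68 (0.0489), the keratins Krt18 at -1.78 ± 0.34 (0.0218) and Krt8 at -1.58 ± 0.25 (0.013), the mesenchyme markers Col1a1 at -2.04 ± 0.47 (0.0351) and Pdgfrb at -0.79 ± 0.20 (0.0456), and the cardiac markers Tnnt2 at -1.28 ± 0.33 (0.0464) and Myl4 at -1.18 ± 0.28 (0.0396). The number of genes called for this difference, 702, moved to between 50 and 1268 when 1 library was left out. Whether the genes named here stayed called then was not followed.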

How the results depend on the processing

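The calls of members were the same in direction under RLE and upper-quartile scaling, which changed no call of a member, and all 10 members were called for iEtv2 SP over WT SP under every alternative. Without a filter on low counts edgeR called 5 members for the reporter in DP, 5 for SP over DP without the reporter and 4 for DP Etv2-positive over SP Etv2-negative cells, beside 15.5%, 7.86% and 9.77% of all genes. Cldn5, Emcn and Clec14a, with few counts, were then tested as well. Among members tested in the main fit, Tie1 alone was added for the reporter in DP and for SP over DP without the reporter. The further call added in each falls among those low-count genes. For DP Etv2-positive over SP Etv2-negative cells, only the compared groups gave 0 members and 1408 genes, in place of 2758, and leaving out both libraries of high ribosomal RNA share gave 0 members and 1768 genes. Leaving out both also gave 2459 genes for the reporter in SP, 1106 for SP over DP with the reporter and 119 for the difference of reporter effects, and put Pecam1 at -0.23 for SP over DP with the reporter and Tie1 and Cd34 at -0.41 and -0.51 for the difference of reporter effects. Only the compared groups gave 1324 genes for SP over DP with the reporter. The difference of reporter effects had 1237 genes by DESeq2, 1740 without a filter and 1537 with the replicate block, and its members called stayed at 0.

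With replicate number as a block, edgeR called 4 members for the reporter in DP (35.1% of all genes) and 7 in SP (30.8%). It called 4 (21.2%) for DP Etv2-positive over SP Etv2-negative cells, where it added Pecam1 (adjusted p = 0.000289), Cdh5 (0.00334) and Tek (0.0304). For SP over DP it called 4 in Etv2-negative cells (15.8%), adding Tie1 (adjusted p = 0.00157). In Etv2-positive cells it called 6 (19.1%), adding Cd34 (0.0312). The block changed no call of a member in the second set. Same-numbered libraries deviated together only in part for the gates (0.096 to 0.334 without and 0.077 to 0.269 with the reporter), the crossed pair (-0.014 to 0.264), WT (0.092 to 0.342) and iEtv2 over WT (-0.076 to 0.166), so those samples are treated as sharing only a number. As a hint from the data, the highest correlation between libraries of different number was below the lowest of the same number for the gates (0.05 without and 0.066 with the reporter) and for WT (0.088), but not for the crossed pair (0.094) or iEtv2 over WT (0.208).

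Leaving out 1 library each gave 1 to 3 members and 787 to 2268 genes for SP over DP without the reporter, with Pecam1 from -0.02 to 0.91 and Icam2 from -1.09 to 0.39. It gave 1342 to 2403 genes with the reporter, with Pecam1 from -0.23 to 0.68. For the difference of reporter effects it gave 50 to 1268 genes, with Pecam1 from -0.69 to 0.40, Tie1 from -0.57 to 1.09, Tek from -0.87 to 0.36 and Cd34 from -0.40 to 0.82. For DP Etv2-positive over SP Etv2-negative cells it gave 0 to 2 members and 1207 to 2816 genes, with Tek from -0.06 to 1.0 and Cd34 from -0.25 to 0.64. In WT it gave 1509 to 2683 genes. The share of the SP Etv2-positive level in DP Etv2-positive cells ranged from 62.7 to 116% for Pecam1, 41 to 91.4% for Cd34, 13.7 to 31.5% for Tek, 14.9 to 27.7% for Icam2, 7.32 to 19% for Tie1, 5.65 to 11.6% for Esam and 5.97 to 11.5% for Cdh5. The causes were not tested. Depth limits Cldn5, Emcn and Clec14a in the reporter line, where each totalled 19 counts or fewer in any group.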
